A study of Magallana angulata with 9 samples.

Results

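The comparison described here is that of cryoprotectant exposed larvae against fresh larvae of the Portuguese oyster Crassostrea angulata, paired by larval pool. It uses 6 of the 9 RNA-seq libraries of the study, namely Fresh 1 to 3 and CPA exposed 1 to 3, which were chosen by their labels, and libraries with the same number come from the same pool. D-larvae are the first shelled swimming stage of a bivalve with a straight hinge and a ciliated velum. Each pool came from the artificial fertilization of oocytes of several females with the sperm of several males, so a library is a mixture of families and of all larval cell types. Fresh larvae stayed in filtered seawater at 4 °C. The exposed larvae of the same pool were held for 3 min at 4 °C in a solution with 10% dimethyl sulfoxide, 1% polyvinylpyrrolidone and 0.2 M sucrose, and then diluted in seawater. They were not frozen. The comparison therefore addresses what the solution and its dilution did to the transcriptome before any freezing, and exposure cannot be told apart from the handling that came with it.

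Cryoprotectants limit the damage that ice does to cells. Dimethyl sulfoxide is a small molecule that crosses membranes and enters the cell, while sucrose and polyvinylpyrrolidone stay outside. Sucrose draws water out of the cell. Moving into and out of such a solution is thus both a chemical and an osmotic challenge. The level of an RNA measured afterwards reflects both its synthesis and its decay.

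The deposited table lists 28372 genes by NCBI gene numbers of the related oyster Crassostrea gigas, and 0 of these numbers occur in the C. angulata gene table used here. The files do not pair the numbers with gene names, so no gene is given a function, no larval marker could be checked and no sequence is shown. At least 5 counts in at least 3 of the 6 libraries were found for 22476 genes. These genes, with 99.97% of all counts, were tested. The library totals in pools 1, 2 and 3 were 28069745, 24482043 and 45051399 estimated counts for fresh larvae and 38226219, 33643297 and 45990672 for exposed larvae. The exposed library was the deeper one in each of the 3 pools.

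Exposure was followed by small shifts in a minority of genes. In the paired fit, 516 genes passed an adjusted p-value of 0.05 (edgeR's quasi-likelihood test, adjusted after Benjamini and Hochberg over all of them), which is 2.3% of the genes tested. Of these, 451 genes (2.01% of those tested) were higher in exposed larvae and 65 genes (0.289%) were lower. In simulated counts, described with the processing, more unchanged genes passed in edgeR than this threshold allows for, so some more of the 516 may be false calls. An unadjusted p-value under 0.05 was found for 3386 genes, or 15.1% of those tested. In absolute value, the log2 fold change had a median of 0.12 over all genes tested and of 0.41 over the 516 genes. Since RNA was taken from whole larvae, a change in the share of a cell type and a change in the RNA of each cell cannot be told apart.

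The count of genes depended on the pairing. Without the replicate block, the edgeR fit of the same 6 libraries had 0 genes with an adjusted p-value under 0.05 and 121 with an unadjusted one. With the block but with the cryopreserved libraries in the fit, edgeR likewise had 0 genes, and 507 with an unadjusted p-value under 0.05. Paired fits of the 6 libraries with other tools gave 466 genes with DESeq2, of which 420 were among the 516, and 596 genes with limma-voom, of which 515 were. An unadjusted p-value under 0.05 was found for 1747 genes with DESeq2 and 3503 with limma-voom, against 3386 in the reported fit. DESeq2 gave no adjusted p-value to 9151 of the 22476 genes.

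The pools differed from each other by more than the conditions did. Of the variation in log2 CPM over all genes tested and the 6 libraries, 85.5% lay between pools, 6.05% between fresh and exposed larvae and 8.47% was left. Every exposed library correlated best with the fresh library of its own pool, with r across genes from 0.988 to 0.992, against 0.944 to 0.958 for fresh libraries of other pools. Fresh larvae of different pools differed by a median absolute log2 ratio of 0.35, 0.37 and 0.38 in the 3 pairs of pools. Within a pool, exposed and fresh larvae differed by 0.16, 0.18 and 0.14 in pools 1, 2 and 3. The difference between exposed and fresh larvae of a pool was thus smaller than that between fresh larvae of any pair of pools. Such a difference holds the noise of single libraries along with any shift, and 1 library per pool and condition cannot part them. For most of the genes that passed the groups overlapped. All 3 exposed libraries lay above all 3 fresh libraries in 93 of the 451 genes that rose, where 1.86% of all genes tested did so. All 3 lay below in 20 of the 65 genes that fell, where 1.59% of all genes tested did so.

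**Figure D1:**
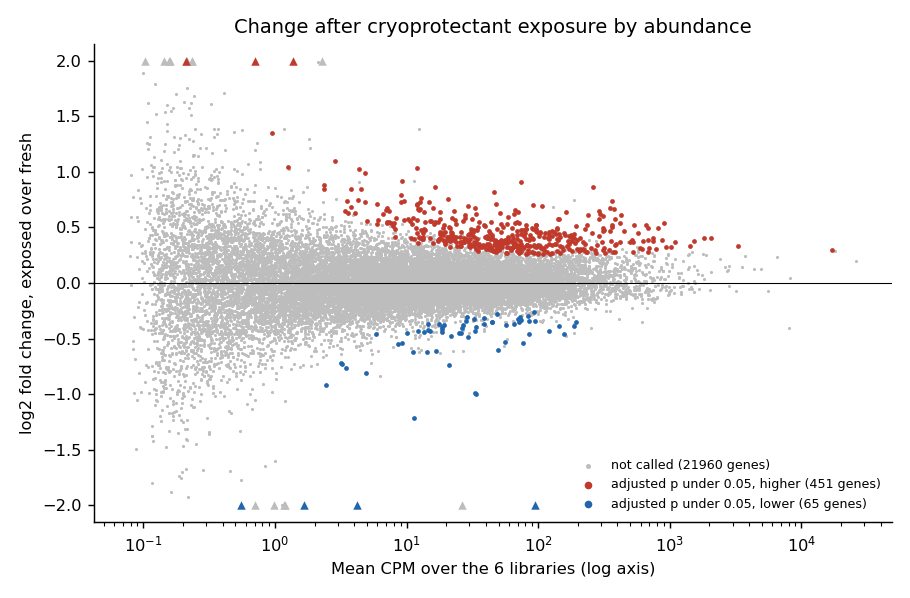
Log2 fold change of exposed over fresh larvae (vertical axis) against the mean CPM over the 6 libraries (horizontal log axis), 1 point per gene tested, with the 451 genes that rose in red and the 65 that fell in blue. Triangles at the edges mark the 20 genes whose fitted change was larger than 2 on the log2 scale, of which 7 passed the test, and the genes that passed at small changes lie mostly above 10 CPM.

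The shifts that passed were small. Of the 516 genes, 3 had a fold change under 1.2, 427 lay between 1.2 and 1.5-fold, 73 between 1.5-fold and a log2 fold change of 1, and 6 between log2 fold changes of 1 and 1.5. The remaining 7 genes (0.0311% of those tested) were over 1.5, 3 upregulated and 4 downregulated. These are the genes that meet the thresholds of the study in this paired edgeR fit. The study applied its thresholds in DESeq2, so the genes it counted need not be the same. Tested against a change of 1.2-fold instead of no change, 51 genes passed (edgeR's glmTreat), 43 higher and 8 lower. The intervals say how large a change remains possible, here over all genes tested with the 516 included. The 95% interval of the log2 fold change (limma-voom, paired) lay within 1.2-fold of no change for 30.2% of the genes tested, within 1.5-fold for 72.1% and within a log2 fold change of 1 for 87.1%.

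None of the 7 genes with a log2 fold change over 1.5 had 10 counts in all 6 libraries, so their size rests on libraries at or near 0. They were chosen for description after their values were seen. The most abundant of them had 0, 5440 and 17142 counts in the fresh larvae of pools 1, 2 and 3 and 0, 0 and 190 counts in the exposed larvae. Pool 1 had no counts of it in either condition, and its fall rests on the other pools. The same holds for another gene with 0, 383 and 446 counts in fresh and 0, 14 and 12 counts in exposed larvae, and for one more with 0, 54 and 35 against 0, 7 and 12 counts. The fourth gene that fell had 81, 61 and 221 counts in fresh larvae and 0 in every exposed library. Among the 3 that rose, a gene with 0 counts in every fresh library had 48, 130 and 135 counts after exposure. Another had 9, 2 and 7 counts in fresh and 41, 53 and 43 in exposed larvae. The last had 0, 3 and 0 counts in fresh and 7, 13 and 27 in exposed larvae, with an adjusted p-value of 0.0496 (edgeR). In 4 of the 7 genes at least 1 pool went between 0 and at least 20 counts. With 10 counts required in every library, 0 genes were past both thresholds in edgeR, while 591 passed at any fold change and 3283 had an unadjusted p-value under 0.05. DESeq2 with the block had 1 gene past both thresholds, which is not among the 7. Leaving out the libraries of pool 1 gave 14 genes, 4 of the 7 among them, leaving out pool 2 gave 2, with 0 of the 7 among them, and leaving out pool 3 gave 9, with 1 of the 7.

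Below these, 4 genes are named to show what a shift looked like in well counted genes. In each direction they are the gene with the largest change and the gene with the smallest p-value among those with a mean of at least 1000 counts, all with at least 10 counts in every library and the same direction in every pool. Gene 105335083, which had the smallest p-value among the abundant genes that rose, had 253, 104 and 192 CPM in the fresh larvae of pools 1, 2 and 3 and 496, 176 and 345 CPM in the exposed larvae. The exposed library was the higher one in each pool, by 1.96, 1.69 and 1.79-fold, although the groups overlap because pool 2 was low in both conditions. The log2 fold change was 0.86 (standard error 0.07, adjusted p = 0.000136, edgeR).
Gene 109619713 had the largest rise, from 1.65, 0.764 and 3.02 CPM in fresh larvae to 4.85, 1.28 and 5.68 CPM in exposed larvae. It was higher in each pool, 2.88-fold in pool 1, 1.63-fold in pool 2 and 1.86-fold in pool 3, and the groups overlap. Its log2 fold change corresponds to a 2.14-fold rise (standard error 0.18 on the log2 scale, adjusted p = 0.00968, edgeR), and DESeq2 gave it no adjusted p-value.

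Gene 105340465 had the smallest p-value among the abundant genes that fell. It had 15.4, 47.8 and 73.2 CPM in fresh and 8.51, 22.5 and 36.4 CPM in exposed larvae. The level fell in every pool by a like factor, to 0.555, 0.470 and 0.498 of the fresh level, while the pools themselves lay further apart than that. The log2 fold change was -0.99 (standard error 0.07, adjusted p = 0.000136, edgeR). Gene 105335899 had the largest fall. Its level was 8.42, 20.2 and 18.5 CPM in fresh and 2.70, 9.15 and 9.08 CPM in exposed larvae, and the fresh library of pool 1 lay below the exposed libraries of the other pools. The log2 fold change was -1.21 (standard error 0.11, adjusted p = 0.000559, edgeR). All 4 genes kept their call with any pool left out, which is largely built into their choice on the same libraries. All 4 lost it without the block (edgeR adjusted p = 1.00).

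**Figure D2:**
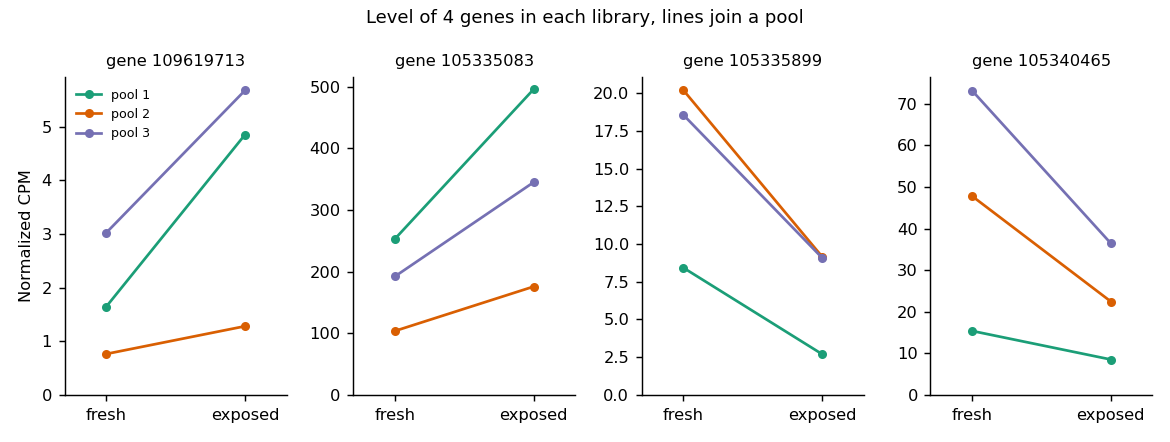
Normalized CPM (vertical axes, each from 0) of the 4 named genes in the fresh and exposed library of each pool, with a line joining the libraries of a pool. Each line of the first pair of genes goes up and each line of the second pair goes down, while the pools start from different levels.

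The share of genes that passed rose with abundance. Among the 4096 genes with a mean under 1 CPM, 4 genes (0.0977%) passed. It was 48 of 7061 genes (0.680%) between 1 and 10 CPM, 318 of 9270 (3.43%) between 10 and 100 CPM, 138 of 1984 (6.96%) between 100 and 1000 CPM and 8 of 65 (12.3%) above that. The precision improved up to 1000 CPM and not beyond it. The median standard error was 0.43 under 1 CPM, 0.14 in the next tier, 0.08 between 10 and 100 CPM, 0.06 between 100 and 1000 CPM and 0.07 above that. The coefficient of variation fitted by edgeR after pairing was 18.5%, 9.26%, 6.55%, 6.36% and 6.67% in these tiers. It is a median over genes and leaves out the noise of counting. The median absolute log2 fold change over all genes of a tier was 0.27, 0.13, 0.08, 0.09 and 0.12, lowest between 10 and 100 CPM. The smallest absolute log2 fold change among the genes that passed was 0.26. The medians of the tiers above 1 CPM lay below it. The median of 0.27 under 1 CPM lay below the median standard error of 0.43 there. A shift of the median size was therefore generally too small to detect in any tier. Larger shifts were bounded unevenly. The 95% interval lay within 1.5-fold of no change for 0.732% of the genes under 1 CPM, against 97.6% between 10 and 100 CPM.

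Direction also moved with abundance. Between 100 and 1000 CPM, 133 genes rose and 5 fell, and above 1000 CPM 8 rose and 0 fell. Between 10 and 100 CPM there were 269 and 49. Of all genes between 100 and 1000 CPM, 57.2% had a fitted change above 0, and of the 65 genes above 1000 CPM, 67.7% did, against 48.6% between 10 and 100 CPM. The median log2 ratio of the 1984 genes between 100 and 1000 CPM was 0.00 in pool 1, 0.08 in pool 2 and 0.02 in pool 3. In the 4096 genes under 1 CPM it was 0.05, -0.08 and 0.01. The trend over abundance was thus steepest in pool 2.

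**Figure D3:**
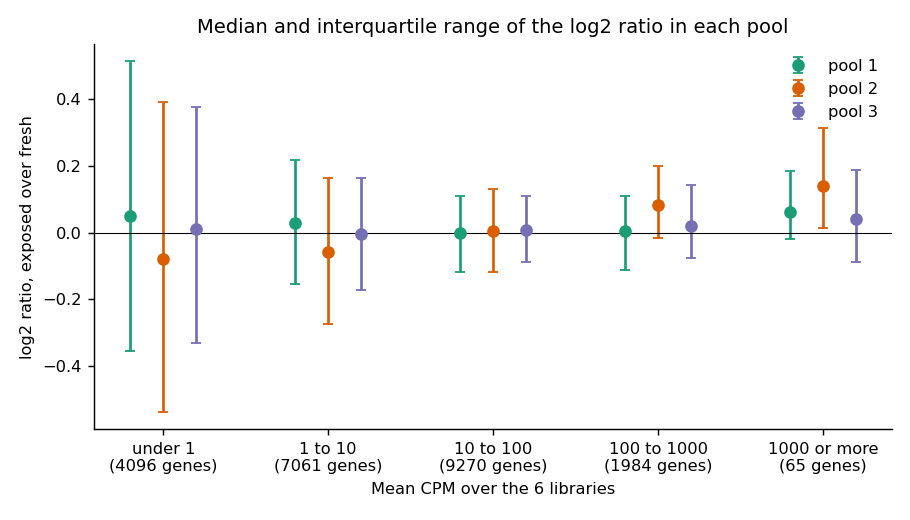
Log2 ratio of exposed over fresh larvae within each pool (vertical axis) in 5 tiers of mean CPM (horizontal axis). Points are medians over the genes of a tier and bars the interquartile range, which narrows from the genes under 1 CPM to those above 10 CPM, while the medians of pool 2 go from -0.08 to 0.14.

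How many genes rose and how many fell depends on the scaling. The TMM factors of the exposed libraries were below those of the fresh library in each pool, with a mean of 0.981 ± 0.078 (SD, n = 3) against 1.023 ± 0.075 (SD, n = 3). With library size only, 495 genes passed, 287 higher and 208 lower, and the median of all genes moved to -0.06. The 20 most abundant genes of the 6 libraries took 14.5%, 11.9% and 11.1% of the counts in the fresh larvae of pools 1, 2 and 3 and 16.0%, 12.8% and 11.3% after exposure, a rise in each pool (2-sided exact test of sign flips, p = 0.25, the smallest that 3 pairs can give). In the tier between 100 and 1000 CPM the split of 133 and 5 became 87 and 30 with library size only, and its median log2 fold change went from 0.02 to -0.04. With the trend over abundance removed from each library, a setting chosen after seeing the data, 102 genes of this tier rose and 17 fell.

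The 65 genes above 1000 CPM, whose counts made up 16.2% to 23.2% of a library, had fitted log2 fold changes from -0.40 to 0.41. Of them, 33 were higher in exposed larvae in all 3 pools and 5 were lower in all 3, where 19.4% and 17.4% of all genes tested were. The 8 that passed rose by log2 fold changes of 0.30 to 0.41. The gene ranked 3 by abundance in these libraries is among them and is singled out after its values were seen. It had 21614, 10979 and 13416 CPM in fresh larvae and 26455, 13644 and 16308 CPM in exposed larvae of pools 1, 2 and 3. The log2 ratios were 0.29, 0.31 and 0.28, a rise of nearly the same size in each pool, and the log2 fold change was 0.30 (standard error 0.07, adjusted p = 0.0466, edgeR). With the trend over abundance removed, 3 of the 65 genes passed.

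The correlation of log2 ratios between pools differed with abundance. Pools share no library, so their log2 ratios can be set side by side, though the deeper exposed library is common to all of them. Across the 1984 genes between 100 and 1000 CPM, r was 0.49 between pools 1 and 2, 0.45 between pools 1 and 3 and 0.59 between pools 2 and 3. Between 10 and 100 CPM the values were 0.25, 0.30 and 0.56, and across the 4096 genes under 1 CPM they were 0.03, -0.01 and 0.02. Noise lowers such values, and the median standard error was 0.43 under 1 CPM against 0.06 between 100 and 1000 CPM. The low r under 1 CPM therefore cannot tell whether shifts were shared less there. The 65 genes above 1000 CPM had r of 0.13, 0.30 and 0.67, so the shift of pool 1 resembled that of the other pools less there than between 100 and 1000 CPM. The direction was the same in all 3 pools for 36.8% of all genes tested, for 23.5% of those under 1 CPM and for 49.3% between 100 and 1000 CPM. Among the genes that passed, 450 of the 451 that rose and 62 of the 65 that fell went the same way in every pool, which is largely built into the paired test. The 3 exceptions among those that fell had 0 counts in both libraries of pool 1.

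A reading that is not built in comes from a pool that took no part in the calls. All genes tested, given for comparison, are not matched to the called genes in abundance. Agreement in direction over all pools rose from 23.5% of genes under 1 CPM to 49.3% between 100 and 1000 CPM. The genes that passed in the reported fit had a median of 51.0 CPM, against 10.2 CPM for all genes tested. Whether called genes exceed genes of like abundance was not tested. With pool 1 left out, 975 genes passed in the paired edgeR fit of the other pools, and 844 of them (86.6%) had the same direction in pool 1, where 59.5% of all genes tested had. Their shift was smaller there. The 795 genes that had risen, by a median log2 fold change of 0.40, had a median log2 ratio of 0.20 in pool 1, and the 180 that had fallen, by 0.42 at the median, had one of -0.21. With pool 2 left out, 149 genes passed and 142 (95.3%) had the same direction in pool 2, against 59.8% of all genes. The 128 that had risen had a median log2 ratio of 0.47 in pool 2 and the 21 that had fallen one of -0.23. With pool 3 left out, 460 genes passed and 414 had the same direction in pool 3, against 61.9% of all genes. Here the 328 that had risen had a median log2 ratio of 0.43, close to the 0.46 of the calling pools, and the 132 that had fallen one of -0.14, against -0.52 in the calling pools.

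**Figure D4:**
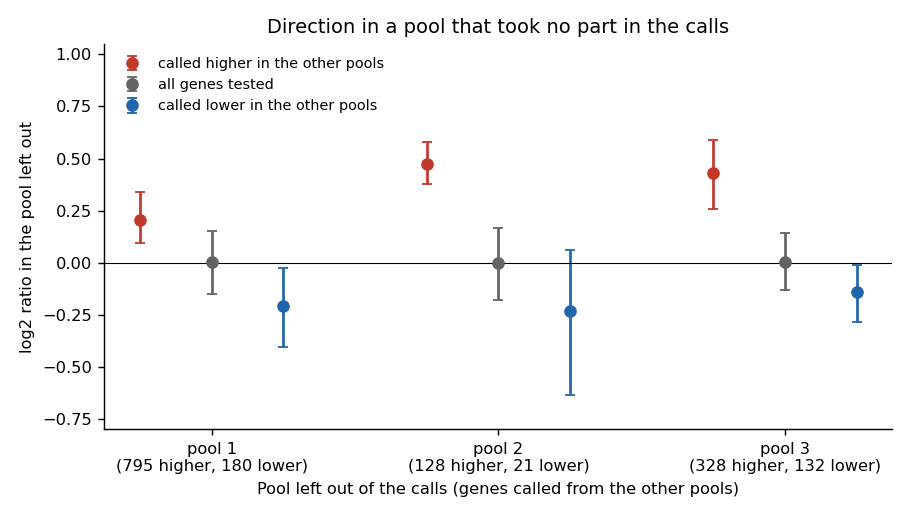
Log2 ratio of exposed over fresh larvae in the pool named below the axis (vertical axis) for genes called from the other pools, higher in red and lower in blue, and for all genes tested in grey. Points are medians and bars the interquartile range, and the red bars lie above 0 in every pool while the blue bar of pool 2 crosses it.

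Of the genes called higher, 88.2%, 99.2% and 95.4% were also higher in the left-out pools 1, 2 and 3, where 59.9%, 58.8% and 62.5% of all genes with a fitted rise were. Of those called lower, 79.4%, 71.4% and 76.5% were also lower there, where 59.0%, 60.7% and 61.3% of all genes with a fitted fall were. Neither comparison is matched for abundance. With library size only and pool 2 left out, the share was 71.7% of the genes called lower and 74.5% of all genes with a fitted fall, so these calls stood no higher than the rest. The number of genes called moved more with the pools than with the tool. Without pool 1 there were 975 genes, 477 of the 516 among them. Without pool 2 there were 149, with 134 of the 516, and without pool 3 there were 460, with 309. In these fits a gene that had passed the filter over all 6 libraries also needed its 5 counts in 3 of 4 libraries. Between 21292 and 21813 genes were tested.

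The exposed libraries were deeper, and the calls were also made at a common library total. When every library was thinned to the total of Fresh 2, the smallest, 459, 491 and 506 genes passed in 3 draws, of which 441, 453 and 462 were among the 516, and between 84.8% and 86.9% of the genes called were higher. With pool 2 left out, the count was 84 genes in the first thinned draw, 76 higher and 8 lower, against 149 without thinning. In a thinned draw, the genes with any count numbered 24538 ± 71.5 (SD, n = 3) in fresh and 24529 ± 195 (SD, n = 3) in exposed larvae, a difference within the spread between libraries.

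The genes that rose were mostly of middle to high abundance, with a median of 56.8 CPM (interquartile range 22.9 to 134), while those that fell had a median of 28.5 CPM (14.3 to 65.2). All genes tested had a median of 10.2 CPM. Together the 451 genes that rose made up 8.50%, 6.29% and 5.90% of the normalized CPM in the fresh larvae of pools 1, 2 and 3 and 10.7%, 8.48% and 7.74% in the exposed larvae. The 65 that fell made up 0.25%, 0.346% and 0.393% in fresh and 0.180%, 0.243% and 0.279% in exposed larvae. These sums describe genes chosen on the same libraries. In each pool the genes that rose held a far larger part of the transcriptome than those that fell. This follows largely from their number, 451 against 65, and their higher abundance. The numbers themselves depend on the scaling, with 287 higher and 208 lower with library size only.

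**Figure D5:**
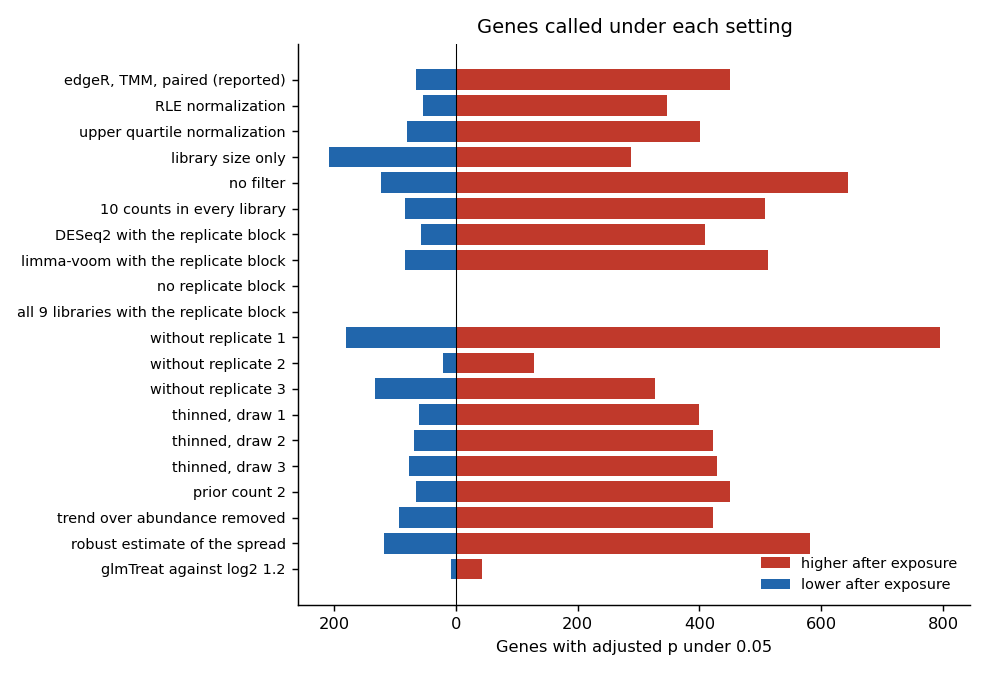
Number of genes with an adjusted p-value under 0.05 under each setting (horizontal axis), genes higher after exposure in red to the right and genes lower in blue to the left. The reported fit has 451 and 65, the fits without pairing or with the cryopreserved libraries have 0, and the split is most even with library size only.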

How the data were processed

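The authors trimmed and filtered the reads, mapped them to the genome of Crassostrea gigas and quantified genes with Salmon 1.1, per the labels and the methods of the study. The table they deposited holds estimated counts without normalization or filter. Its columns were assigned to libraries by the position the labels give. Estimates were rounded to integers, and a gene was kept if 3 or more of the 6 libraries had 5 or more counts. TMM normalized counts entered the quasi-likelihood test of edgeR 4.0.16 (R 4.3.3), with condition and replicate number as factors and a prior count of 0.125. Standard errors are approximate, from the ratio of the log2 fold change to the root of F. CPM are TMM normalized, and log2 ratios within pools used a prior count of 2. Intervals came from limma-voom (limma 3.58.1), and DESeq2 1.42.0 was an alternative.

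The study states that each pool was put through every condition. Fresh and exposed libraries of the same number deviated together from their group means (r = 0.784, 0.808 and 0.861 in the 3 pools). For different numbers r was from -0.541 to -0.272, which follows largely from the positive values, since deviations from a group mean cancel out. From the study's statement and the positive values, the replicate number was taken to mark the pool. The genes named follow a rule set on the fit: in each direction the largest change with a mean of at least 50 counts, and the smallest p-value with a mean of at least 1000 counts, with at least 10 counts in every library. The comparison, its pairing and these rules were chosen with earlier results of these data known. Simulated counts, drawn with the spread of each gene in the data, were used to test the scripts. There, more unchanged genes passed in edgeR and limma-voom than the adjusted p-value allows for, and those looked at were mostly genes with a large spread, so the calls reported may hold more false ones than the threshold states. The spread between libraries covers pools, and each pool gave 1 library per condition. Counts from sequencing are not independent molecules.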

Additional observations from a re-analysis of the deposited data

How the results depend on the processing

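Without the replicate block, and with all 9 libraries in the blocked fit, 0 genes passed in edgeR with or without the fold threshold (121 and 507 at an unadjusted p-value under 0.05). Against a change of 1.2-fold, 51 passed. With a pool left out, between 149 and 975 genes passed, between 2 and 14 of them with a log2 fold change over 1.5, and between 71.3% and 85.9% of them were higher. Past both thresholds, 21 genes were found with no filter, 0 with 10 counts in every library (591 at any fold change) and 1 with DESeq2. At lower fold thresholds there were 13 genes over a log2 fold change of 1, 86 over 1.5-fold and 513 over 1.2-fold. The share of higher genes was 87.4% in the reported fit, 83.4% with upper quartile scaling, 58.0% with library size only, 84.1% with no filter, 82.0% with the trend over abundance removed and 83.1% with a robust estimate of the spread, the last 2 settings added after the values were seen. The median absolute log2 fold change was 0.14 with no filter. RLE scaling gave 400 genes, all among the 516, and the robust estimate 700, of which 505 were. Alignment to a related species, and its effect on counts, was not tested. Depth limits the genes under 1 CPM most.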

Other observations

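The genes that passed differed more between pools in fresh larvae than other genes of their abundance, a measure that the paired test does not use. Between 10 and 100 CPM, the range of log2 CPM over the 3 fresh libraries had a median of 0.80 in the genes that rose, 0.71 in those that fell and 0.42 in all genes. Between 1 and 10 CPM the medians were 1.19, 1.15 and 0.73. Between 100 and 1000 CPM they were 0.78 in the genes that rose, 0.42 in those that fell and 0.48 in all genes, so the genes that fell did not stand above the rest there. No test was made of these differences.

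Estimated counts that are not whole arise where a read is shared between genes. At least 1 of the 6 estimates differed from a whole number by more than 0.01 in 69.4% of the genes tested and in 89.1% of the genes that passed. All genes above 100 CPM had such an estimate. Between 10 and 100 CPM, 284 of 8012 such genes (3.54%) passed, and 34 of 1258 genes (2.70%) with whole estimates did. The median absolute log2 fold change was 0.08 in the former and 0.09 in the latter. Of the 7 genes with a log2 fold change over 1.5, 6 had estimates that were not whole, as had the 4 named genes.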
